A study of Mus musculus with 9 samples.

Results

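The genes that encode the co-chaperones, or helper proteins, of HSP70 and HSP90 were followed in mammary tumors with and without the stress-inducible HSP70 genes. The list holds 40 of the 55403 gene rows in the deposited count table. It was made by name and function, with earlier results of these data known. It comprises 11 class A and class B J-domain proteins, 14 class C J-domain proteins, 6 nucleotide exchange factors and 9 adaptors and regulators of HSP70 and HSP90. All 40 were found in the table, and all 40 passed the filter on low counts, beside 14665 genes tested in all. The KO group was 5 tumors of genotype Hspa1a/Hspa1b-/-, from mice 120 to 125 days old, and the WT group was 4 tumors of genotype Hspa1a/Hspa1b+/+, from mice 122 to 132 days old. All were female mice of the strain that the labels call C57BL/6 MUC1.Tg MMTV-PyMT, so both groups carried a human MUC1 transgene and the polyoma middle T oncogene behind the MMTV promoter, which is active in mammary epithelium. The labels do not restrict the loss of Hspa1a and Hspa1b to a tissue. Tumors were dissociated with collagenase and trypsin at 37 °C before RNA extraction, and ribosomal RNA was depleted before stranded paired-end sequencing.

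HSP70 holds an unfolded protein for as long as ADP is bound to it. J-domain proteins bring clients to HSP70 and speed its hydrolysis of ATP, nucleotide exchange factors release the ADP and so let the client go, and adaptors with tetratricopeptide repeats pass clients on to HSP90 or to the ubiquitin system. HSP90 in turn works with its own helpers, among them Cdc37 for protein kinases and the FK506-binding proteins and p23 for steroid hormone receptors. In cells under heat or proteotoxic stress, HSF1 raises the transcription of HSP70, HSP90 and several of these helpers together. Hspa1a and Hspa1b encode the stress-inducible HSP70 known as HSP72, and the comparison asks what the transcripts of its helpers did in tumors without it.

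Between 11500920 and 19136317 fragments were sequenced per library, and 4410399 to 6221181 fell in a gene. Members took 9067 to 12618 of these counts in a library, or 0.186% to 0.226%, and a single member had 27 to 1299 counts in a library. The deleted genes were checked first. Hspa1b stood at 0.197, 0.163, 0.657, 0 and 0 CPM, counts scaled to library size, in the KO libraries, against 62.8, 81.1, 28.7 and 47.4 CPM in the WT libraries (log2 fold change -7.89 ± 0.51 SE, edgeR adjusted p = 5.31e-05). Its neighbour and near-identical copy Hspa1a stood at 0.394, 0.163, 1.64, 0.722 and 1.03 CPM in KO libraries, against 9.77, 9.20, 3.99 and 6.49 CPM in WT libraries (log2 fold change -3.16 ± 0.47 SE, adjusted p = 0.0342). Every KO library lay below every WT library for both genes, as the labels require. Leaving out any library other than KO 3 or WT 3 ended the call of Hspa1a, with adjusted p-values of 0.0729 to 0.125, and so did age as a covariate (adjusted p = 0.0836). The epithelial markers Epcam, Krt8 and Krt18 were above 0 in every library. Libraries KO 3 and WT 1 had the lowest shares of fragments that could not be mapped, 11.0% in KO 3 and 12.2% in WT 1. WT 3 came next at 15.2%, and the remaining libraries had 19.7% to 27.1%, so the pair was not sharply set off on this measure.

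No co-chaperone gene passed the test between KO and WT tumors. At an edgeR adjusted p under 0.05, 0 of 40 were higher and 0 of 40 were lower, where 0.0546% and 0.0341% of the 14665 genes tested were called (13 genes, 0.0886%, in either direction). DESeq2 also called 0 of the 40, where it called 0.464% of all genes (0.205% higher and 0.259% lower). At an unadjusted p under 0.05, Ptges3 alone was lower and 0 members were higher, which is 2.5% of the members. Of all genes, 3.36% were higher and 4.59% were lower at that level, 7.95% in either direction. The smallest adjusted p of a member was 0.616. The members' counts were thus at or below the background.

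The point estimates were small and mostly negative. The log2 fold changes of KO over WT ran from -0.46 for Fkbp5 to 0.28 for Dnajc6, with a median of -0.11, where the median over all genes tested was -7.8e-05. Of the 40 estimates, 32 (80%) were below 0, against 50.0% of all genes tested. Members share libraries and often move together, so this count is a description of the list and carries no test. As these are bulk samples, fewer cells of a type and less RNA per cell cannot be told apart. The 95% interval of every member lay within a 2-fold difference in either direction, from a lower bound of 0.525-fold to an upper bound of 1.93-fold, and 31 of the 40 lay within 1.5-fold. For 39 members the interval held 0, the exception being Ptges3. The median SE of a member was 0.141 on the log2 scale, against 0.206 over all genes tested. It was 0.173 over the 9420 genes with a mean level in the range of the members.

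**Figure D1:**
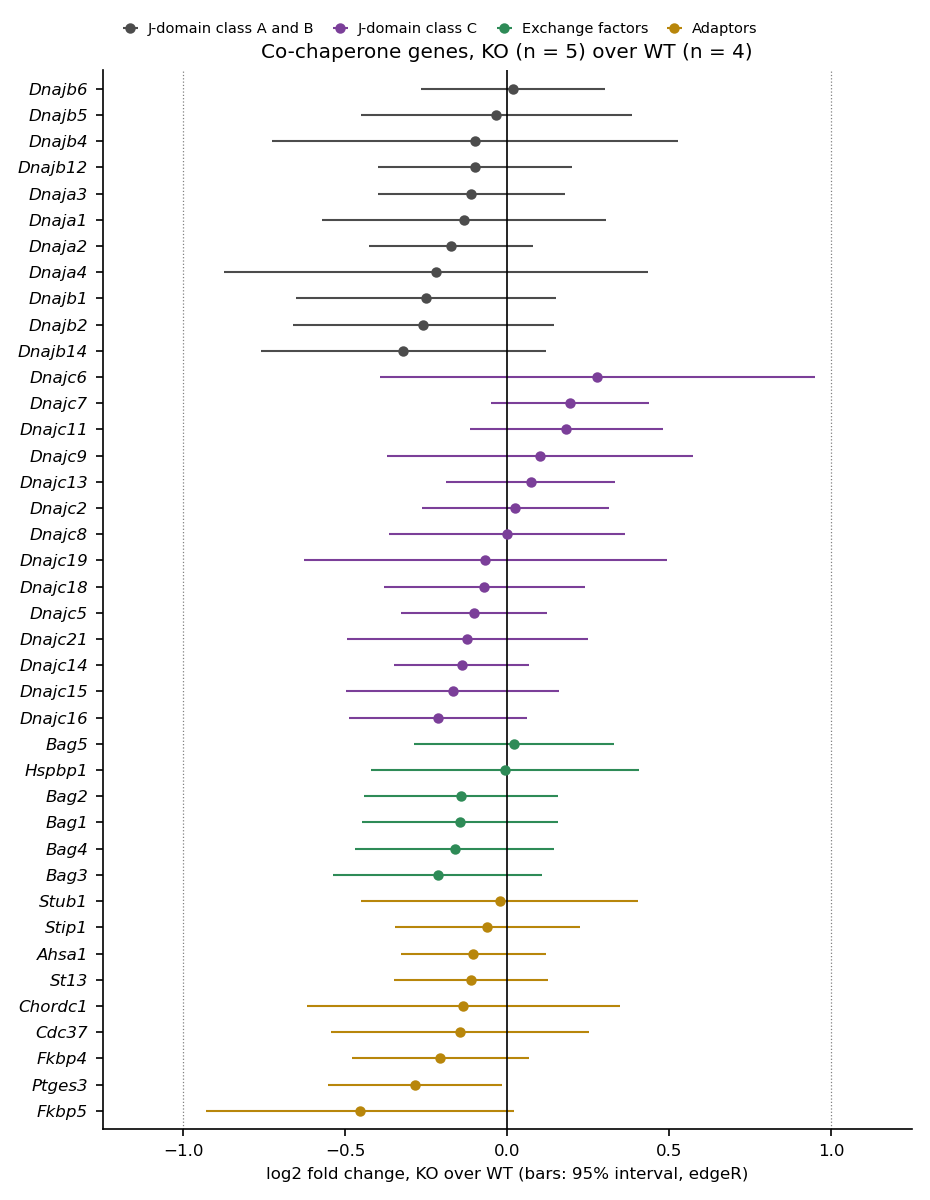
Log2 fold change of KO (n = 5) over WT (n = 4) for each of the 40 co-chaperone genes with its 95% interval, grouped by role, dotted lines marking a 2-fold difference. All intervals lie between the dotted lines, and 32 of the 40 points lie left of 0.

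Levels of different genes were compared as CPM per kilobase of exon. The length was the union of all annotated exons, from 1349 bases for Bag1 to 15741 for Dnajb14, so the order depends on the annotation. On this scale the 40 members spanned more than a factor of 10. The most abundant in KO was Dnajc7, a class C protein whose tetratricopeptide repeats bind both HSP70 and HSP90, at 38.9 ± 3.36 CPM per kilobase in KO and 34.0 ± 2.51 in WT tumors (SD, n = 5 and n = 4). Beside it stood the exchange factor Bag1, at 35.5 ± 4.42 in KO and 39.2 ± 5.76 in WT, and the immunophilin Fkbp4, at 34.0 ± 4.29 in KO and 39.2 ± 3.38 in WT. In WT tumors Fkbp4 and Bag1 stood above Dnajc7, so the order of these leading members differed between the groups. The adaptor Stip1, which joins HSP70 to HSP90 and is also called HOP, had 27.2 ± 1.94 CPM per kilobase in KO and 28.3 ± 4.88 in WT. Dnaja2, a cytosolic class A protein, had 27.0 ± 2.80 in KO and 30.5 ± 2.31 in WT. At the low end, Dnajb14 had 2.31 ± 0.445 in KO and 2.89 ± 0.85 in WT, close to Dnajc15 and Dnajb5. By role, the median over the genes was 8.83 CPM per kilobase for classes A and B, 6.61 for class C, 8.51 for exchange factors and 13.2 for adaptors. When the members were put in order by their KO level, the gap between neighbours exceeded the larger of their SDs in only 4 of 39 pairs, so most neighbours in the order cannot be separated.

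**Figure D2:**
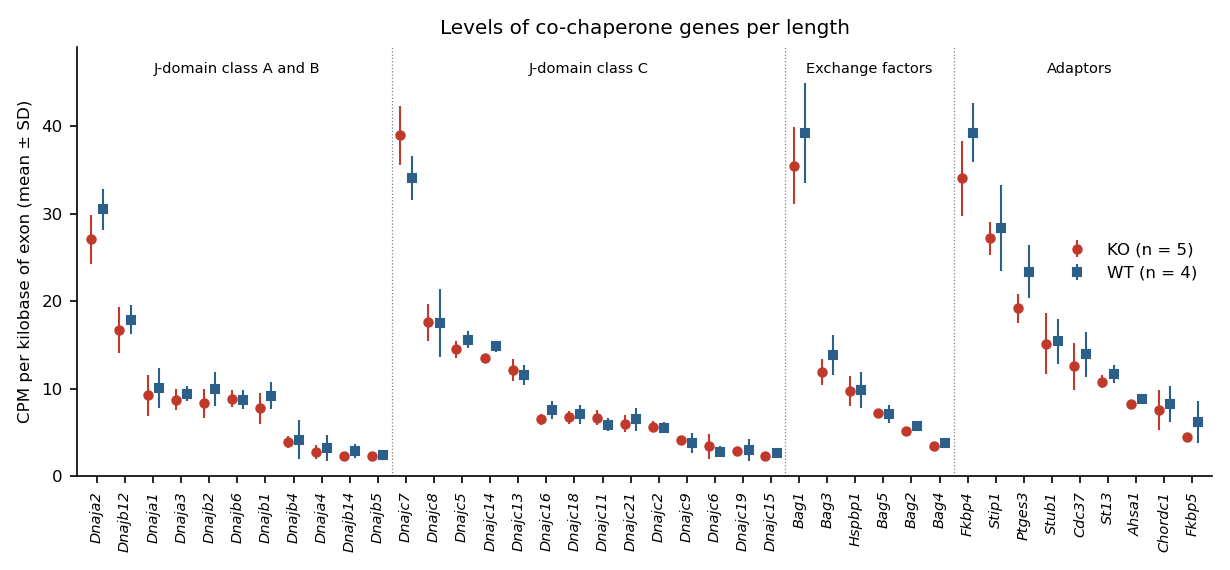
Level of each co-chaperone gene in CPM per kilobase of exon, mean ± SD over 5 KO libraries (circles) and 4 WT libraries (squares), grouped by role. Dnajc7, Bag1 and Fkbp4 lead with 34.0 to 39.2, and the groups' error bars overlap for most genes.

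Class A and class B J-domain proteins are the general helpers of HSP70. Of 11 measured, 0 were called, 10 had estimates below 0, and their median log2 fold change was -0.13. Dnajb1, the classical HSP40 and the main cytosolic partner of inducible HSP70, had 22.1, 19.1, 21.3, 29.4 and 32.1 CPM in KO libraries, against 28.6, 36.6, 26.9 and 26.0 CPM in WT libraries. KO 1, KO 2 and KO 3 lay below all WT libraries, while KO 4 and KO 5 lay among them (log2 fold change -0.25 ± 0.18 SE, adjusted p = 0.725). Without WT 2 it was -0.13. Dnaja1, a cytosolic class A protein, had 72.7, 63.9, 111, 64.4 and 86.2 CPM in KO libraries, against 110.0, 76.7, 96.9 and 66.0 CPM in WT libraries. Its 2 highest libraries were KO 3 and WT 1, and the groups overlapped over most of their range (-0.13 ± 0.20, adjusted p = 0.881). The estimate was -0.28 without KO 3 and -0.0052 without WT 1. Dnaja2 had 85.1, 78.9, 87.2, 66.6 and 84.5 CPM in KO libraries, against 81.9, 98.7, 91.4 and 90.9 CPM in WT libraries. WT 1 alone lay inside the KO range (-0.17 ± 0.12, adjusted p = 0.707).

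Dnajb14, an endoplasmic reticulum membrane protein with its J-domain towards the cytosol, had 38.4, 31.9, 46.6, 28.2 and 36.8 CPM in KO libraries, against 64.9, 44.1, 37.4 and 35.8 CPM in WT libraries. The gap between the groups came largely from WT 1, and the log2 fold change of -0.32 ± 0.20 SE (adjusted p = 0.693) became -0.10 without that library. Dnajb2, which carries ubiquitin-interacting motifs, had 42.2, 35.7, 24.1, 35.6 and 39.3 CPM in KO libraries, against 31.2, 50.8, 41.0 and 46.1 CPM in WT libraries. KO 3 and WT 1 were the lowest libraries, and the other 3 WT libraries lay at or above most of the KO libraries (-0.26 ± 0.18, adjusted p = 0.719). Its log2 fold change was -0.15 without KO 3 and -0.16 without WT 2. The only class A or B member with an estimate above 0 was Dnajb6, a suppressor of polyglutamine aggregation, at 53.8 ± 5.94 CPM in KO and 53.1 ± 6.88 CPM in WT tumors (0.02 ± 0.13, adjusted p = 0.982). Dnaja3, the mitochondrial member of these classes, averaged 34.2 ± 4.75 CPM in KO and 37.0 ± 3.48 CPM in WT.

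For some members the counts themselves are uncertain. Processed pseudogenes that match a transcript over at least 300 bases at 95% identity or more were found for 6 members: Dnaja1, Dnajb6, Dnajc2, Dnajc8, Dnajc19 and Ptges3. For Dnaja1 there were 3 such copies, matching up to 1194 bases at up to 99.4%. A gene on the opposite strand overlaps 44.1% of the exon bases of Dnaja4 (Wdr61), 42.3% of those of Stub1 (Jmjd8) and 17.0% of those of Dnajc14 (Ormdl2). No source used here says whether strand was used in counting, so it is not known whether reads of such pairs were kept apart.

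Class C J-domain proteins share only the J-domain and serve single tasks such as clathrin uncoating, mitochondrial import or ribosome work. Of 14 measured, 0 were called, 8 had estimates below 0, and the median log2 fold change was -0.03, nearest to 0 of the 4 roles. Dnajc7 had 198, 178, 213, 185 and 173 CPM in KO libraries, against 149.5, 166, 179 and 168 CPM in WT libraries. KO 1, KO 3 and KO 4 lay above all WT libraries, and WT 3 lay above KO 2 and KO 5 (0.19 ± 0.11, adjusted p = 0.675). Dnajc16 had 45.3, 43.0, 46.3, 35.7 and 42.1 CPM in KO libraries, against 58.8, 47.7, 44.4 and 46.3 CPM in WT libraries. WT 1 was the highest, and without it the log2 fold change of -0.21 ± 0.13 SE (adjusted p = 0.683) was -0.12.

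Dnajc14, an endoplasmic reticulum membrane protein at chr10:128804062-128819446 (GRCm38, plus strand), was the only member whose groups did not overlap. It had 84.3, 91.9, 84.7, 88.5 and 91.6 CPM in KO libraries, against 101, 94.7, 92.9 and 100.0 CPM in WT libraries. The highest KO library and the lowest WT library were close together, and the difference did not pass the test (-0.14 ± 0.10, adjusted p = 0.712). A lack of overlap with KO below was seen for 1.26% of all genes tested, with KO above for 1.44% and with either group on top for 2.70%, so 1 of 40 members (2.5%) is near the background. Dnajc14 was also the steadiest member within each group, with a coefficient of variation of 4.12% in KO and 4.23% in WT. The opposite case was Dnajc6, auxilin, which uncoats clathrin vesicles. It had 23.8, 21.8, 31.2, 15.3 and 9.06 CPM in KO libraries, against 21.2, 15.0, 17.6 and 13.0 CPM in WT libraries, a 3.44-fold range over the 9 libraries. KO held both the highest and the lowest library, and the estimate of 0.28 ± 0.31 (adjusted p = 0.837) was the largest positive one of the list and the least precise. The remaining class C members had log2 fold changes between -0.17 for Dnajc15 and 0.18 for Dnajc11.

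Nucleotide exchange factors release ADP from HSP70. Of 6 measured, 0 were called and 5 had estimates below 0, with a median of -0.14. Bag3, the stress-inducible BAG protein of selective autophagy, had 33.7, 33.1, 24.1, 32.1 and 29.8 CPM in KO libraries, against 33.7, 44.1, 31.1 and 32.9 CPM in WT libraries. WT 2 was the only WT library clearly above the KO range (-0.21 ± 0.15, adjusted p = 0.716), and the log2 fold change was -0.09 without WT 2 and -0.14 without KO 3. Bag1 had 54.8, 42.4, 41.9, 47.1 and 53.2 CPM in KO libraries, against 42.8, 61.4, 55.2 and 52.1 CPM in WT libraries. WT 1 lay at the low end with KO 2 and KO 3 (-0.15 ± 0.14, adjusted p = 0.802), and the estimate was -0.07 without WT 2 and -0.23 without WT 1. Hspbp1, an exchange factor without a BAG domain, averaged 18.5 ± 3.23 CPM in KO and 18.6 ± 3.87 CPM in WT tumors, with KO libraries at 16.2, 20.4, 14.3, 19.5 and 22.2 CPM and WT libraries at 13.0, 19.2, 20.1 and 21.9 CPM. The groups covered the same range (-0.01 ± 0.19, adjusted p = 0.995), and the interval of its difference ran from -0.42 to 0.41. With a library left out its estimate lay between -0.14 and 0.07.

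Adaptors and regulators couple HSP70 to HSP90 or set the HSP90 cycle. All 9 estimates were below 0, with a median of -0.14, and 0 were called. Ptges3 encodes p23, which binds ATP-bound HSP90 and steadies its hold on steroid receptors, and it lies at chr10:128058954-128077272 (plus strand). It had 39.0, 38.9, 45.5, 42.4 and 46.8 CPM in KO libraries, against 56.1, 57.3, 51.5 and 42.5 CPM in WT libraries. WT 1, WT 2 and WT 3 lay above all KO libraries and WT 4 lay among them, for a log2 fold change of -0.28 ± 0.12 SE (adjusted p = 0.616, 95% interval -0.55 to -0.02). Its count is uncertain, since reads cannot be assigned where the processed pseudogene Ptges3-ps matches it over 480 bases at 100% identity.

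Fkbp5 and Fkbp4 encode FKBP51 and FKBP52, immunophilins of HSP90 complexes with steroid receptors, and Fkbp5 is itself a classical target of the glucocorticoid receptor. Fkbp5 had 41.6, 38.1, 42.7, 45.5 and 44.3 CPM in KO libraries, against 43.3, 63.5, 38.1 and 88.2 CPM in WT libraries. WT 2 and WT 4 were high while WT 1 and WT 3 lay within or at the edge of the narrow KO range, so the most negative estimate of the list (-0.46 ± 0.22, adjusted p = 0.639) rested on those libraries. It was -0.19 without WT 4 and -0.61 without WT 3. The 10 glucocorticoid receptor targets listed, Fkbp5 among them, divided into 5 with positive and 5 with negative estimates (median 0.05, 0 called). Fkbp5 also lies at chr17:28399094-28517527 (minus strand), 6.56 Mb from the deleted Hspa1b, and Stub1 lies 9.13 Mb from it. These are the 2 members on that chromosome, so for them an effect of DNA linked to the targeted allele cannot be told apart from an effect of the deletion. Fkbp4 had 96.7, 93.4, 76.0, 101 and 108 CPM in KO libraries, against 99.1, 108, 109.8 and 122 CPM in WT libraries, KO 3 being the lowest (-0.21 ± 0.12, adjusted p = 0.685). Without KO 3 its estimate was -0.14.

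The remaining adaptors were not called either. Stub1, the U-box ubiquitin ligase CHIP, had 38.8, 42.4, 23.3, 44.6 and 45.0 CPM in KO libraries, against 31.9, 40.5, 37.9 and 47.4 CPM in WT libraries (-0.02 ± 0.20, adjusted p = 0.983). KO 3 was the lowest, followed by WT 1. The estimate was 0.12 without KO 3 and -0.11 without WT 1. St13, or HIP, which steadies ADP-bound HSP70, had 114, 98.4, 119, 111 and 115 CPM in KO libraries, against 119, 133, 122 and 107 CPM in WT libraries (-0.11 ± 0.11, adjusted p = 0.807). WT 4 lay inside the KO range and the other WT libraries at or above its top, and the estimate was -0.06 without WT 2 and -0.17 without WT 4. Stip1 had 57.5, 50.5, 57.1, 60.7 and 60.4 CPM in KO libraries, against 55.4, 74.2, 59.0 and 50.4 CPM in WT libraries. The groups overlapped, with WT 2 the highest (-0.06 ± 0.13, adjusted p = 0.923), and the estimate was 0.06 without WT 2 and -0.14 without WT 4. Cdc37, the kinase-specific HSP90 helper, had 98.7, 93.2, 73.9, 128 and 122 CPM in KO libraries, against 86.5, 138, 112 and 119 CPM in WT libraries (-0.15 ± 0.18, adjusted p = 0.853). Its lowest libraries were KO 3 and WT 1, and the estimate was -0.05 without KO 3, -0.26 without WT 1 and -0.04 without WT 2. Ahsa1, which stimulates the HSP90 ATPase, averaged 35.9 ± 1.58 CPM in KO and 38.6 ± 2.19 CPM in WT, and Chordc1 averaged 56.4 ± 17.1 CPM in KO and 62.0 ± 15.3 CPM in WT.

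**Figure D3:**
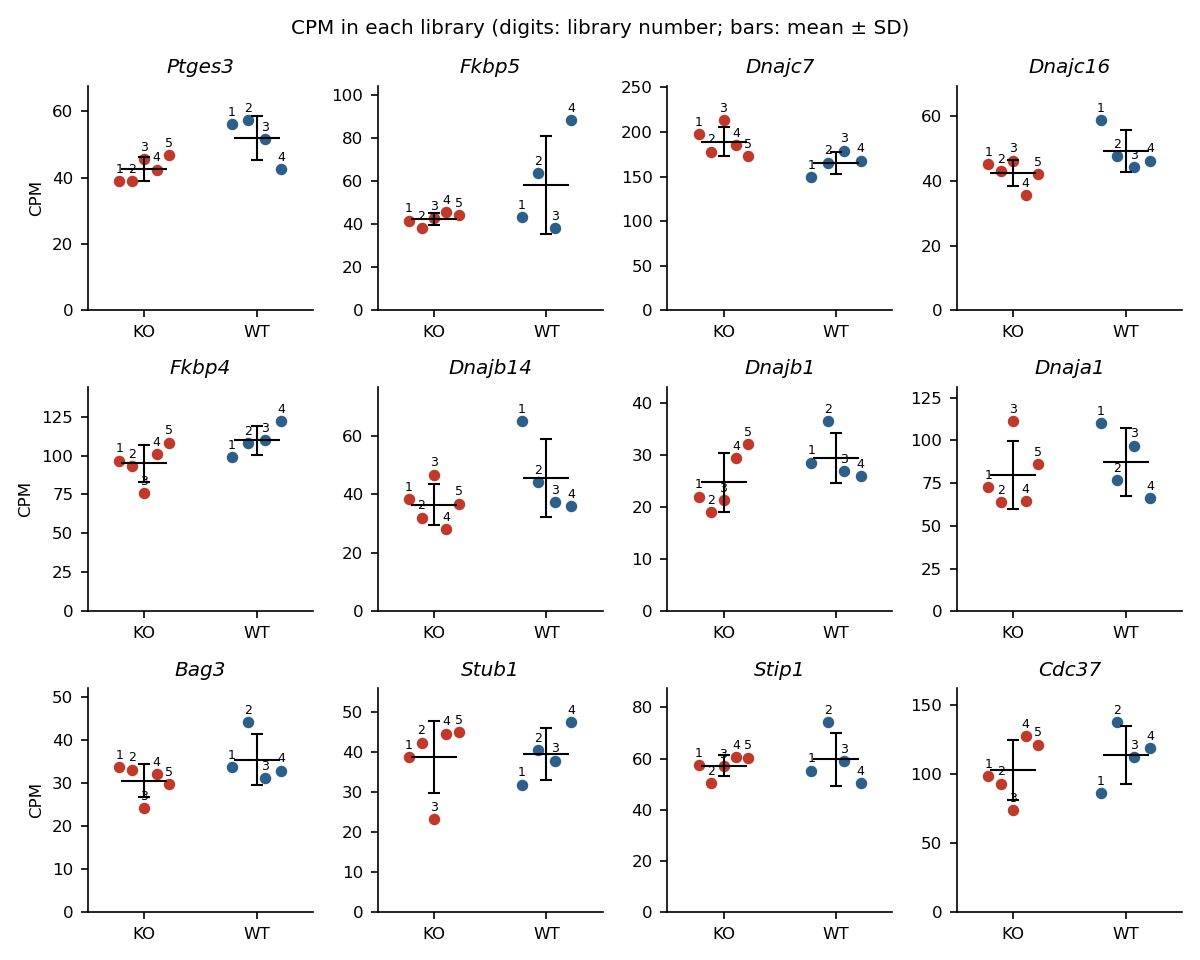
CPM of 12 co-chaperone genes in each of the 5 KO and 4 WT libraries (points, numbered by library) with the mean ± SD. The groups overlap in every panel, WT 2 and WT 4 alone are high for Fkbp5, and KO 3 is the lowest for Stub1, followed by WT 1.

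Summed over the 40 members, KO libraries held 2048, 1944, 2059, 1998 and 2100.1 CPM, against 2109, 2292, 2097 and 2105 CPM in WT libraries. KO 5 lay just above WT 3, and every other KO library lay below every WT library. The means were 2030.0 ± 60.0 CPM in KO and 2151 ± 94.5 CPM in WT (SD, n = 5 and n = 4). By role, adaptors summed to 539.7 to 625 CPM in KO and 616 to 713 CPM in WT, and classes A and B to 427 to 497 CPM in KO and 463 to 565 CPM in WT. Class C reached 808 to 885 CPM in KO and 805 to 828 CPM in WT, and exchange factors 138 to 166 CPM in KO and 150.5 to 190.0 CPM in WT. WT 2, from the oldest mouse at 132 days, was the highest library for 13 of the 40 members, WT 1 for 10 and WT 4 for 6. KO 1, KO 2 and WT 3 were highest for none. No such count over all genes tested is given beside these, so they are not a trait of the members. Without WT 2 the median log2 fold change of the members was -0.07, and with age as a covariate it was -0.06. All other tumors came from mice 120 to 125 days old. The age covariate thus rests largely on WT 2, and age cannot be told apart from that library.

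Members varied between tumors of the same genotype. The median coefficient of variation of a member was 12.7% in KO and 15.3% in WT, with the largest values at 41.6% for Dnajc6 in KO and 53.9% for Dnajb4 in WT. KO 3 and WT 1, the libraries with the fewest unmapped fragments, were both above all 7 others for 6 members: Dnaja1, Dnajb14, Dnajc13, Dnajc15, Dnajc19 and Chordc1. They were both below all 7 others for 9 members: Dnaja4, Dnajb2, Dnajb5, Dnajc8, Dnajc11, Bag5, Hspbp1, Stub1 and Cdc37. Those shares, 15% and 22.5%, stand beside 14.4% and 15.7% of all genes tested. Dnajc13, an endosomal J-domain protein, shows the pattern, with 141, 142, 172, 136 and 133 CPM in KO libraries and 158, 129, 131 and 133 CPM in WT libraries. Dnajc8, associated with splicing, shows the reverse, with 44.9, 43.3, 36.6, 51.3 and 48.2 CPM in KO libraries and 30.5, 53.1, 48.4 and 47.4 CPM in WT libraries. KO 3 also had the largest share of fragments outside annotated features, at 50.4%. Within the other 7 libraries alone, 32 of 40 members had estimates below 0, the median was -0.12 and 0 were called. For the 15 members just named, estimates without both libraries ran from -0.27 for Dnajb2 to 0.18 for Dnajc11, with Dnaja1 at -0.16, Dnajb14 at -0.21, Cdc37 at -0.16, Hspbp1 at -0.06 and Stub1 at 0.03. Between KO 3 and WT 1 alone, 24 of 40 were lower in KO 3, with a median difference of -0.06 and no replicate check.

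**Figure D4:**
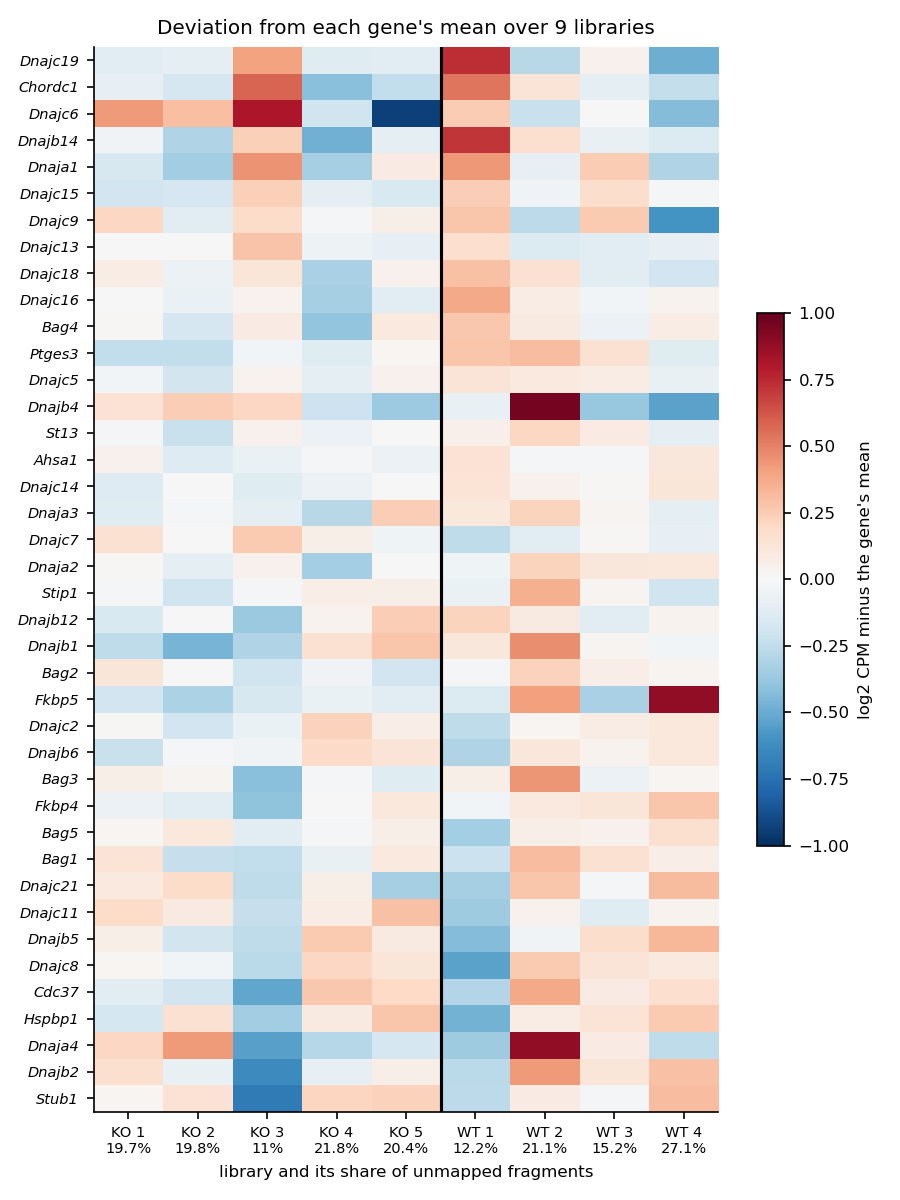
Log2 CPM of each co-chaperone gene (rows) minus its mean over the 9 libraries, with KO libraries left of the line and WT libraries right of it, and each library's unmapped share under its name. Rows are ordered by the mean of KO 3 and WT 1, which share high values at the top and low values at the bottom. The strongest deviations elsewhere are WT 2 for Dnajb4 and Dnaja4, WT 4 for Fkbp5 and KO 5 for Dnajc6.

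The chaperones that the members serve were read from the same test. Among 14 HSP70 and HSP110 genes, Hspa1a and Hspa1b were lower and Hspa1l, their testis-type neighbour, was higher in KO (log2 fold change 5.16 ± 0.40, adjusted p = 0.000166). For Hspa1l too, an effect of DNA at the targeted allele cannot be told apart from an effect of losing HSP72. The constitutive HSP70 gene Hspa8 averaged 463 ± 31.8 CPM in KO and 565 ± 92.2 CPM in WT (-0.29 ± 0.13, adjusted p = 0.633), and the estimate was -0.18 without WT 1. Hsp90ab1, the constitutive HSP90, had 835, 823, 890.4, 1000.5 and 1012 CPM in KO libraries, against 1181, 1287, 1062 and 1038 CPM in WT libraries. All KO libraries lay below all WT libraries, which was so for 1.26% of all genes tested. The difference did not pass the test (-0.32 ± 0.13, adjusted p = 0.616). Hsp90ab1 was the only such gene of the 4 HSP90 genes listed. Of the 14 HSP70 and HSP110 genes, 4 lay so, Hspa1a and Hspa1b among them, and 1 had KO above WT without overlap. Inducible Hsp90aa1 had an estimate of -0.25 ± 0.18 (adjusted p = 0.720), and the HSP110 exchange factors Hsph1 and Hspa4 had -0.14 ± 0.22 and -0.08 ± 0.20 (adjusted p = 0.885 and 0.935). The transcription factor Hsf1 had 0.22 ± 0.15 (adjusted p = 0.716). With a library left out, the estimate was -0.38 without KO 3 for Hsp90aa1 and 0.12 without WT 1 for Hsf1, and it took either sign for Hsph1 (0.05 without WT 1) and Hspa4 (0.08 without WT 2).

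Co-chaperones outside the 40 members had estimates in both directions. Of 23 further J-domain proteins, 18 passed the filter, with 8 above 0 and 10 below 0, a median of -0.02 and 0 called. Of 30 further exchange factors and adaptors, 29 passed, with 14 above 0 and 15 below 0, again a median of -0.02 and 0 called. No test was made of the difference between these lists and the members. Genes known to be induced by heat through HSF1, set apart within the lists, gave negative estimates throughout. Apart from Hspa1a and Hspa1b, 14 of 14 were below 0 (median -0.21, 0 called), against 50.0% of all genes tested. Many other lists also shared a direction. Below 0 were 10 of 10 luminal, 10 of 10 macrophage, 9 of 9 endothelial, 9 of 10 fibroblast and 5 of 5 erythroid markers tested. So were 14 of 15 immediate early genes and 6 of 6 milk protein genes, while 12 of 13 skeletal muscle markers were above 0. Others, such as the glucocorticoid receptor targets, were mixed. The heat-inducible list was chosen with earlier results known, so its count carries no test. Of the 14 heat-inducible genes, 7 were members, namely Dnaja1, Dnajb1, Bag3, Chordc1, Stip1, Ahsa1 and Fkbp4, with a median of -0.14. Their summed level was 345 to 411 CPM in KO and 386 to 451 CPM in WT, so the groups overlapped. The other 7, among them Hsp90ab1 and Hspa8, summed to 1567 to 1916 CPM in KO and 1937 to 2387 CPM in WT, without overlap. Hsp90ab1 and Hspa8, named above as the constitutive forms, made up most of that sum. Taken singly, 4 of the 16 listed genes, Hspa1a and Hspa1b among them, had KO below WT without overlap. That was so for 1.26% of all genes tested.

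HSF1 binds inverted repeats of the unit GAA, and the 250 bases before the annotated starts were searched for 2 opposed units, GAANNTTC or TTCNNGAA, which read the same on both strands. RefSeq upstream sequences (GRCm38.p6) were matched by symbol for 34 of the 40 members, in 47 windows. Of these members, 7 held a match, in 17.0% of the member windows, against 12.8% of 32851 windows of the whole table. An element of 3 units, GAANNTTCNNGAA or TTCNNGAANNTTC, which contains the shorter motif, was found for 1 of the 34 members, Dnajb6. It is a single stretch that lies in 2 overlapping windows of that gene, so its share of the member windows (4.26%, against 0.466% of all windows) counts it for each. The matches are shown because they are the stretches by which the members could be split into a group with and a group without the motif, and capitals mark the motif.
Dnajb6, chr5:29735844-29735872, plus strand: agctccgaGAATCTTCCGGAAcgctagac
Dnaja1, chr4:40722333-40722362, plus strand: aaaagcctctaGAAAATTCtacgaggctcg
Dnaja4, chr9:54699458-54699487, plus strand: ggaacctccgcGAACGTTCtgggcctatgt
Dnaja4, chr9:54699496-54699525, plus strand: gcctcctggcgGAACCTTCcgccggcgccg
Dnajb4, chr3:152193846-152193870, minus strand: ttcgttcgctgTTCTAGAAagtaca
Fkbp4, chr6:128438789-128438818, minus strand: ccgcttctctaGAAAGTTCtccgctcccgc
Cdc37, chr9:21150086-21150115, minus strand: tcggcgggaacTTCCAGAAggcctcaccac
Stub1, chr17:25833024-25833053, minus strand: agagcgcggcgGAAGCTTCtcagagctaag
Members with a match had a median log2 fold change of -0.13 and 6 of 7 estimates below 0, and those without had a median of -0.12 and 22 of 27 below 0. Dnajb6, the member with 3 units, was the one of the 7 with a positive estimate. A match is a string of letters and not a shown binding site, and members without a match may carry elements elsewhere.

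Markers of the cell types that such tumors can hold were set beside these values, and 0 of them were called. The summed level of 10 fibroblast markers was 303 to 649 CPM in KO and 762 to 1054 CPM in WT, with 9 of 10 estimates below 0. For 10 luminal epithelial markers it was 3778 to 4432 CPM in KO and 3941 to 7431 CPM in WT, with 10 of 10 below 0. For 11 macrophage markers it was 255 to 646 CPM in KO and 492 to 791 CPM in WT. For 14 skeletal muscle markers it was 149 to 245 CPM in KO and 77.7 to 207 CPM in WT. For 15 immediate early genes, which dissociation can raise, it was 701 to 1491 CPM in KO and 1090 to 1811 CPM in WT. For 7 milk protein genes it was 2452 to 8027 CPM in KO, against 16985, 3375, 5244 and 12204 CPM in WT 1 to WT 4, with 6 of 6 tested estimates below 0 (median -3.98). WT 1 and WT 4 stood apart in the caseins Csn1s1, Csn1s2a and Csn2, and without both the median log2 fold change of the members was -0.13 and 0 were called. For 9 endothelial markers it was 34.7 to 96.8 CPM in KO and 75.8 to 171 CPM in WT. Among these 7 lists, only the fibroblast sum did not overlap between the groups, and Col1a1, Col1a2 and Col3a1 made up most of it. Taken singly, 2 of the 10 fibroblast markers did not overlap, against 2.70% of all genes tested. No gene of these 7 lists was at 0 in all libraries, and the part of these differences in the members' values was not tested.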

How the data were processed

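The deposited table holds raw counts of fragments per gene and library that the authors made, with the summary lines that STAR writes, per the file headers. The submitters' processing notes name GRCm38 as the build and STAR 2.5.4a, Trimmomatic 0.36 and FastQC 0.11.5 as tools. Their settings, the annotation release and strand are not stated there. Lines for no gene entered neither library sizes nor tests, and took 11.0% to 27.1% (unmapped), 5.50% to 9.53% (multimapped), 34.0% to 50.4% (no feature) and 0.971% to 1.23% (ambiguous) of a library's fragments. Of 55401 mouse identifiers, 55141 matched the GRCm38 annotation, which also gave positions and exon lengths.

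KO was compared with WT in edgeR 4.0.16 (R 4.3.3) by glmQLFit and glmQLFTest, two-sided, with TMM factors, filterByExpr and genotype as the only term. P-values were adjusted by Benjamini-Hochberg over all 14665 genes tested and called under 0.05. An SE is the log2 fold change divided by the root of F. The labels name the 9 samples as separate tumors without naming animals, and p-values measure the spread between them. A level of 0 allows up to 3 counts, or 0.482 to 0.680 CPM before TMM factors are applied, for counting error only. The CPM values of genes use library sizes with TMM factors, so this range is on a slightly different scale. Levels between genes are CPM per kilobase and not the TPM first planned, because genes under 500 bases took 43.2% to 66.1% of TPM. Near copies were sought with blastn 2.17.0.

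The fit was tested on simulated data in which 200 of 14665 genes were changed. There edgeR recovered 17 at 1.5-fold, 131 at 2-fold and 193 at 4-fold, with 1, 2 and 6 false calls. A difference of 1.5-fold would thus mostly go uncalled in such data. Members and lists were chosen with earlier results of these data known. Values are given for called members, the 10 others with the smallest p, a list of members by role and the named chaperone partners. Members given as examples of the pattern of KO 3 and WT 1, and those at either end of spread and level, were chosen after their values were seen. Alternatives were DESeq2 1.42.0, limma-voom 3.58.1 with sample weights, other scaling factors, filters, thresholds and covariates, the library number as a block, and leaving out libraries.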

Additional observations from a re-analysis of the deposited data

Results flagged for a closer look

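Among 96 groups of members and partner chaperones tested for a library far from the rest, 7 were marked because the gap from the extreme library to its nearest neighbour took most of the group's range. Chance marks about 1 in 20 such groups. Of the 7, 6 were in KO 3 or WT 1, the libraries with the fewest unmapped fragments. Dnajc13 stood at 171.744 CPM in KO 3, where the next KO library had 142 CPM, and at 158.154 CPM in WT 1, where the next WT library had 133 CPM. In KO 3, Dnajc15 stood at 18.7178 CPM with 14.8 CPM next, Dnajc19 at 15.2698 CPM with 10.8 CPM next, and Chordc1 at 86.0364 CPM with 54.0 CPM next. Stub1 was low in KO 3, at 23.3152 CPM with 38.8 CPM next. Hsp90aa1 was low in WT 4, at 175.92 CPM with 243 CPM next. The part of the unmapped share in these values was not tested.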

How the results depend on the processing

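In each of 21 alternatives, 0 of the 40 members were called, and the same held at an adjusted p under 0.1. The smallest adjusted p of a member over them was 0.307, and 25 to 34 of the 40 estimates were below 0. The median log2 fold change of the members stayed below 0 but was closer to it without scaling factors, at -0.0545, a setting that moved the median of all genes to 0.06, and with age as a covariate, at -0.0620. With 1 library left out it ran from -0.155 without WT 4 to -0.0651 without WT 2. The number lower at an unadjusted p under 0.05 was between 0 and 4 over the alternatives, and the number higher was 0 except under the block, where it was 1, Dnajc6. Estimates near 0 changed sign. Stub1 was 0.0165 with limma-voom, 0.0366 without scaling factors, 0.0823 with age and 0.0276 without KO 3 and WT 1. Hspbp1 was 0.0168 with upper quartile factors, 0.0512 without factors, 0.0725 with age and 0.00938 with the unmapped share. With age, a covariate that rests largely on WT 2, Stip1 was 0.0736, Cdc37 0.0511 and Hspa4 0.102. Without WT 1 and WT 4, Hsph1 was 0.232. With 1 library left out, Stub1 ran from -0.112 to 0.115, Hspbp1 from -0.141 to 0.0747, Stip1 from -0.141 to 0.0581, Hspa4 from -0.221 to 0.0767 and Hsph1 from -0.282 to 0.0510. The cause was not tested. The alternative without KO 3 and WT 1 was chosen after seeing the data. Over all genes, 13 were called, 68 with DESeq2, 29 without a count filter, 19 with limma-voom, 17 with the unmapped share, 9 with the block, 7 with age, 6 with a minimum mean count of 50, and 6 to 13 with 1 library left out.

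Same-numbered KO and WT libraries had residual correlations of -0.02, 0.38, 0.11 and 0.38, and KO 3 correlated best with WT 1 (0.57), so the numbers were not taken to pair the tumors. With the replicate block and KO 5 left out, 0 members were called, with a median of -0.12, and the call of Hspa1a was lost (adjusted p = 0.169). It was also lost without WT 1 and WT 4, the libraries with the most Csn1s1 and Csn2 (adjusted p = 0.306), and without KO 3 and WT 1 (adjusted p = 0.0501). Depth and 9 libraries limit the precision to a median SE of 0.141 for a member on the log2 scale.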

Other observations

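Zbtb16, another glucocorticoid receptor target and chosen here after its values were seen, had its 2 highest levels in the same libraries as Fkbp5. It stood at 61.5, 88.0, 32.7, 56.1 and 47.0 CPM in KO libraries and at 31.2, 126, 21.6 and 111 CPM in WT libraries, with WT 2 and WT 4 on top. WT 2 and WT 4 were also the highest libraries for Klf9, at 69.8 and 69.6 CPM. They were not for the rest of the list, namely Tsc22d3, Per1, Sgk1, Dusp1, Errfi1, Cdkn1a and Mt2. Per1 stood at 394, 219.7, 175, 117 and 327 CPM in KO and 89.3, 129, 161 and 234 CPM in WT. No test was made of this likeness.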
